A study of Mus musculus with 2 samples.

Results

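The 8 genes described here encode the parts of caveolae and of the diaphragms that close caveolae and fenestrae in endothelial cells: the diaphragm protein gene Plvap, the caveolin genes Cav1 and Cav2, the cavin genes Cavin1, Cavin2 and Cavin3, and the EHD ATPase genes Ehd2 and Ehd4. They were chosen by symbol among the 53465 genes of the deposited table, and all 8 were present. Expression was measured in endothelial cells, the cells that line blood vessels, isolated from mice treated with NeuroD1 and from mice treated with GFP. All mice were of the C57Bl/6 strain and carried tie2-cre, a Cre recombinase driven by the Tie2 promoter, which is active in endothelial cells and also in blood-forming lineages. NeuroD1 is a proneural transcription factor, and GFP a fluorescent protein that served as the control. There was 1 library per treatment, made from 10000 cells after cells of 3 mice had been collected, so differences could not be checked against replicates and are given without p-values. The labels used here give no age, vector, dose or time, and do not say whether these mice had a stroke.

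Caveolae are small flask-shaped pits of the plasma membrane. Caveolins are inserted into the inner leaflet of the membrane, cavins form a coat around the pit, and EHD ATPases assemble at its neck. Capillaries of most organs carry many caveolae, and fenestrated ones carry pores closed by a diaphragm built of the Plvap protein. Healthy brain capillaries hold few caveolae and little Plvap, and the lipid transporter Mfsd2a is known to keep caveolar transport across the blood-brain barrier low.

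In these libraries the 8 genes were near the same level after NeuroD1 and after GFP. None differed by 2-fold, 4 were higher and 4 lower in NeuroD1, and Plvap, the classical marker of a barrier that has lost its brain character, was almost equal. The clearest difference was in Cavin2, at 10.1 FPKM in NeuroD1 and 15.1 FPKM in GFP, and it exceeded counting error but not the spread between the libraries. FPKM are the authors' deposited values, fragments scaled by exon length and by a factor for each library.

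Whole reads could be recovered from the FPKM values for all 8 genes, which held 387 reads in NeuroD1 and 504 reads in GFP, out of 2001425 and 2011126 reads in these libraries. Outside 19 genes above 1000 FPKM the libraries held 851963 reads in NeuroD1 and 958795 reads in GFP. Neurod1 itself stood at 182 FPKM in NeuroD1 and 0.664 FPKM in GFP. The endothelial adhesion molecule gene Pecam1 stood at 14.4 and 12.4 FPKM, and the tight junction gene Cldn5 at 31.5 and 33.9 FPKM, in NeuroD1 and GFP. Reads were also found in genes with no known endothelial role. The 1514 chemoreceptor genes, for odours, pheromones and taste, had a median of 1.40 FPKM and a 95th percentile of 4.79 FPKM in NeuroD1, against a median of 1.54 FPKM and a 95th percentile of 4.39 FPKM in GFP. These levels are set beside the members' values below. The library method barcodes transcripts at their 3' end, while FPKM divides by the whole exon length, so an order of levels between genes depends on that division.

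Cav1 and Cav2 are neighbours. On GRCm38 chromosome 6, Cav2 lies from 17281185 to 17289115 and Cav1 from 17306335 to 17341452, both on the plus strand with 17219 bases between them. Cavin2 lies on chromosome 1 from 51289126 to 51302960 on the plus strand, and Cavin1 on chromosome 11 from 100956733 to 100970887 on the minus strand. Cavin3, from 105480083 to 105482300, and Ehd2, from 15946958 to 15967567, lie far apart on the minus strand of chromosome 7. Plvap lies on chromosome 8 from 71497765 to 71511752 and Ehd4 on chromosome 2 from 120089175 to 120154606, both on the minus strand. The merged exons are between 1662 bases in Cavin3 and 5119 bases in Ehd2. Those of Cavin3 share 374 bases, or 22.5% of their length, with Gm45667 on the opposite strand, which was listed at 0 in both libraries. Whether strand was used in counting is not stated in the labels. The other members share no exonic base with another annotated gene.

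Promoter sequence was at hand for 6 of the 8 genes, as 300 bases from 250 before to 50 after the RefSeq start site on GRCm38.p6. Of these, 4 are printed 5′ to 3′ on the gene's strand: those of the neighbours Cav1 and Cav2, whose ratios between the libraries lay on opposite sides of 1, that of Cavin2, which had the clearest difference, and that of Ehd2, the only one with an E-box of those searched. Capitals mark matches on either strand to the E-boxes CAGATG and CAGCTG, hexamers of the kind that proneural factors such as NeuroD1 bind, to the GC box GGGCGG and to the TATA sequence TATAAA.
Cav1 (chr6:17306085-17306384, plus strand): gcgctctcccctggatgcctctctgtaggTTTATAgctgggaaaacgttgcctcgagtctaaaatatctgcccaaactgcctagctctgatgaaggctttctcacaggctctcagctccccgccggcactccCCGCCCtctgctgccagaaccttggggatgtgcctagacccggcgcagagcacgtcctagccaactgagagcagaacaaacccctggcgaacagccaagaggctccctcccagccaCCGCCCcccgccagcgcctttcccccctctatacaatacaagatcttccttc
Cav2 (chr6:17280935-17281234, plus strand): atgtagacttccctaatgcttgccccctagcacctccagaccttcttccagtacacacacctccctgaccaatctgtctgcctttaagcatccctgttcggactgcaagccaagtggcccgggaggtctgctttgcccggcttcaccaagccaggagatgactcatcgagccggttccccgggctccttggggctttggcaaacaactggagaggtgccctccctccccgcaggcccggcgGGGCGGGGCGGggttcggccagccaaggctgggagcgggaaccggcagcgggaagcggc
Cavin2 (chr1:51288876-51289175, plus strand): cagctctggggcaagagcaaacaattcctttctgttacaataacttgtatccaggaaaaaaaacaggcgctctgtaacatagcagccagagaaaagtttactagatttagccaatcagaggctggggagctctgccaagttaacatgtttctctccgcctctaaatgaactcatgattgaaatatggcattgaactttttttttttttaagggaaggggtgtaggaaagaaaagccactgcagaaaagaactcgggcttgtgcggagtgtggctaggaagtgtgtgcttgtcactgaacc
Ehd2 (chr7:15967486-15967785, minus strand): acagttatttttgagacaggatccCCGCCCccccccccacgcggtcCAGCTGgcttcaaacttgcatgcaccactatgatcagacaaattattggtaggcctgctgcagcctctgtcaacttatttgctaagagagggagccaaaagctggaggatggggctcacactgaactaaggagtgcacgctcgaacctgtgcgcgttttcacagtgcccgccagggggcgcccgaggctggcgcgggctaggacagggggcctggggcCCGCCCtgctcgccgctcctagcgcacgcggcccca
CAGATG was found in none of the 6 windows, against 17.2% of 32851 RefSeq windows of the same length. CAGCTG was found in that of Ehd2 alone, with its match beginning 204 bases before the start, against 16.3% of all windows. GGGCGG was in 5 of the 6, against 35.7% of all windows, and the overlapping matches in Cav2 begin 9 and 4 bases before the start. TATAAA was in Cav1 alone, 221 bases before the start, against 13.6% of all windows. The Cavin2 window held none of the 4 sequences and had a GC content of 43.3%, against 64.3% for Cav2. A match is a description of letters and no evidence of binding, and a window without one says only that the letters are not there.

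**Figure D1:**
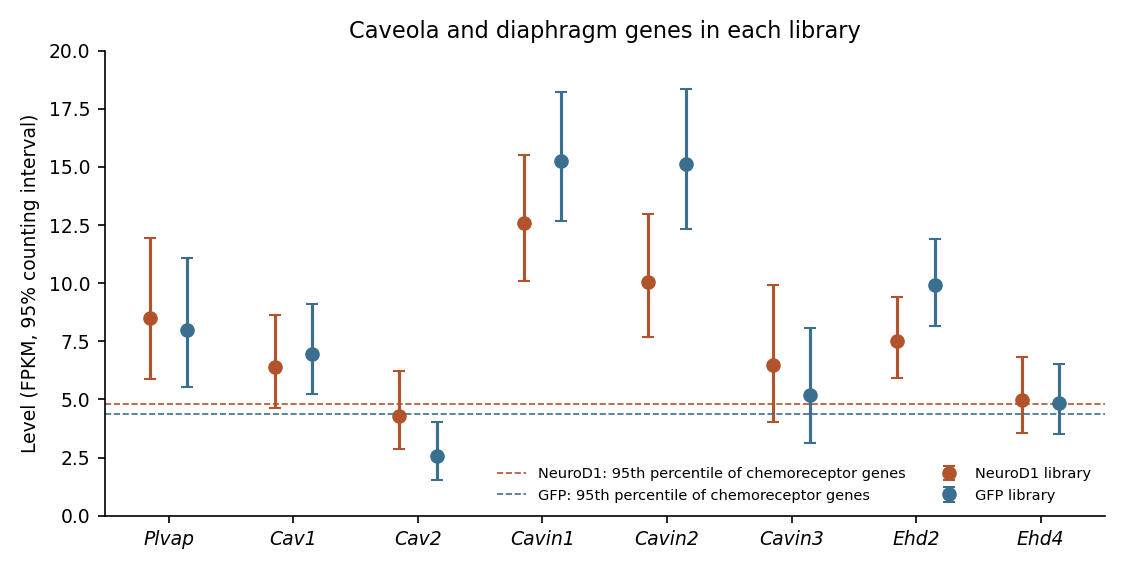
Level of each of the 8 genes in FPKM (vertical axis) in the NeuroD1 library (left point of each gene) and the GFP library (right point), with exact Poisson 95% intervals of the recovered reads; dashed lines are the 95th percentile of chemoreceptor genes in each library. The intervals of the libraries overlap for every gene, and Cav2 lies below its line in both.

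The diaphragm gene Plvap stood at 8.52 FPKM in NeuroD1 (33 reads, 95% interval 5.86 to 11.96 FPKM) and at 7.97 FPKM in GFP (35 reads, interval 5.55 to 11.1 FPKM). The ratio of NeuroD1 over GFP was 1.07, with an exact Clopper-Pearson 95% interval from the reads of 0.643 to 1.77. A difference within these limits was not detectable at this depth. Both values were above the 95th percentile of chemoreceptor genes, at 6.06 times their median in NeuroD1 and 5.17 times in GFP. In both libraries the level of Plvap was above that of most protein-coding genes, with 93.9% of them below it in NeuroD1 and 93.5% in GFP. All such intervals cover counting error only, because several reads may come from 1 molecule.

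Among the caveolins, Cav1, which encodes the protein that caveolae need to form, was lower in NeuroD1 by less than counting error. It stood at 6.40 FPKM in NeuroD1 (43 reads, interval 4.63 to 8.62 FPKM) and 6.97 FPKM in GFP (53 reads, interval 5.22 to 9.11 FPKM), a ratio of 0.919 (interval 0.600 to 1.40). Cav2, whose protein joins caveolin-1 in mixed oligomers, had the largest ratio of the 8 genes in the direction of NeuroD1. It stood at 4.30 FPKM in NeuroD1 (28 reads, interval 2.86 to 6.22 FPKM) and 2.58 FPKM in GFP (19 reads, interval 1.55 to 4.03 FPKM), a ratio of 1.67 (interval 0.900 to 3.16). The interval holds 1, and both levels were under the 95th percentile of chemoreceptor genes. Cav2 was also the lowest member by FPKM in each library, with 70.1% of protein-coding genes below it in NeuroD1 and 40.4% in GFP. The FPKM of Cav1 over that of Cav2 was 1.49 in NeuroD1 and 2.70 in GFP.

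Of the cavins, Cavin1 and Cavin2 had the highest FPKM of the set. Cavin1, which encodes the coat protein without which caveolae are lost, stood at 12.6 FPKM in NeuroD1 (88 reads, interval 10.1 to 15.5 FPKM) and 15.3 FPKM in GFP (121 reads, interval 12.7 to 18.2 FPKM). The ratio of 0.824 had an interval of 0.619 to 1.09. Cavin2, a coat subunit with a known role in shaping the caveolar membrane, stood at 10.1 FPKM in NeuroD1 (60 reads, interval 7.68 to 13.0 FPKM) and 15.1 FPKM in GFP (102 reads, interval 12.3 to 18.3 FPKM). Its ratio of 0.666 had an interval of 0.476 to 0.925 and was the only one of the 8 whose counting interval excluded 1. As background, 14791 protein-coding genes held 20 reads or more over both libraries, and intervals lay below 1 for 6.22% of them and above 1 for 5.93%; in a set of 8 genes, 1 is not far from such a share. At the median of these genes, the libraries varied 1.76 times as much as counting alone gives. With an interval widened to that spread the Cavin2 ratio reached from 0.436 to 1.02, so none of the 8 genes was called by the widened interval. The widened interval lay above 1 for 2.63% and below 1 for 2.3% of the 14791 genes. Its factor of 1.76 was taken from these same genes, so those shares follow in part from it. The factor also holds any effect of treatment, which 1 library per treatment cannot separate from other variation. Cavin3, the subunit that binds protein kinase C delta, stood at 6.48 FPKM in NeuroD1 (21 reads, interval 4.01 to 9.90 FPKM) and 5.18 FPKM in GFP (19 reads, interval 3.12 to 8.08 FPKM). Its ratio of 1.25, with an interval of 0.641 to 2.46, lay on the other side of 1 from those of Cavin1 and Cavin2.

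Ehd2 encodes the ATPase that holds caveolae at the cell surface, and by FPKM it was the fourth member in NeuroD1 and the third in GFP. It stood at 7.51 FPKM in NeuroD1 (75 reads, interval 5.91 to 9.42 FPKM) and 9.90 FPKM in GFP (112 reads, interval 8.16 to 11.9 FPKM). The ratio of 0.758 had an interval of 0.558 to 1.03, which holds 1. Ehd4, a relative that acts in endosomal traffic and is known from cultured cells to act with Ehd2 at caveolae, was nearly equal in the libraries. It stood at 4.99 FPKM in NeuroD1 (39 reads, interval 3.55 to 6.82 FPKM) and 4.86 FPKM in GFP (43 reads, interval 3.52 to 6.54 FPKM), a ratio of 1.03 (interval 0.649 to 1.62). Both Ehd4 levels were close above the 95th percentile of chemoreceptor genes.

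**Figure D2:**
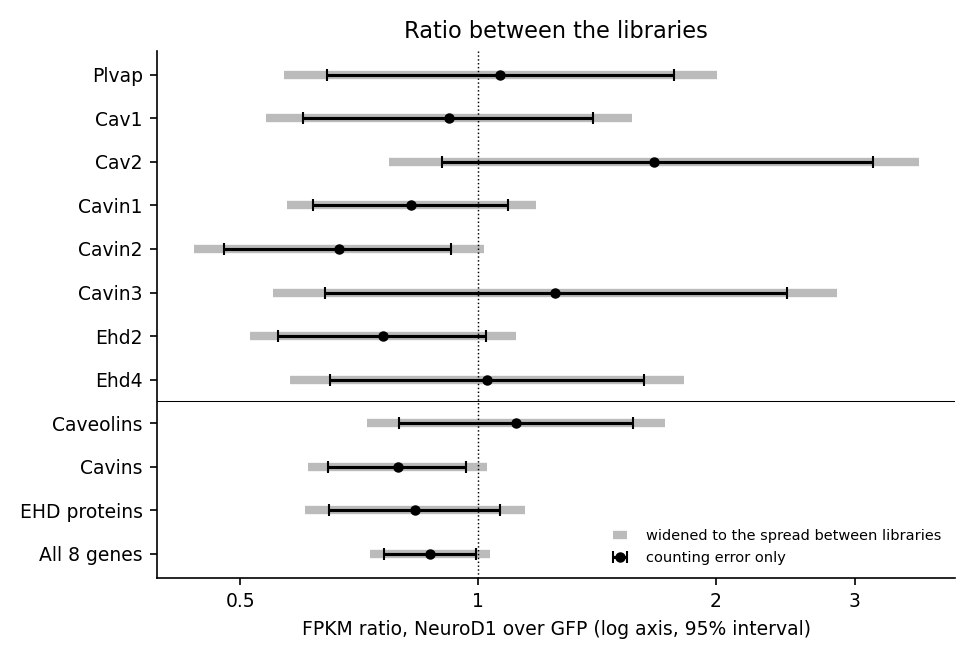
FPKM ratio of NeuroD1 over GFP (horizontal log axis) for each gene and for reads summed by family, with exact 95% intervals from counting error (black) and intervals widened by the variance between the libraries (grey). Cavin2, the cavins and the sum over all 8 genes have black intervals below 1, and every grey interval holds 1.

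In order of FPKM, Cavin1 and Cavin2 led in both libraries and Ehd4 and Cav2 closed the order in both. In NeuroD1 the order between them was Plvap, Ehd2, Cavin3 and Cav1, and each gene's interval overlapped that of the next. In GFP it was Ehd2, Plvap, Cav1 and Cavin3, and the step from Cavin2 to Ehd2 was the only one between neighbours whose intervals did not overlap. This order depends on the division by exon length. In reads, Ehd2 was above Cavin2 in NeuroD1 (75 against 60) and in GFP (112 against 102). Cavin3 held the fewest reads in NeuroD1, 21, and shared the fewest, 19, with Cav2 in GFP. The highest level was 2.92 times the lowest in NeuroD1 and 5.92 times in GFP. The range of FPKM was thus narrower in NeuroD1, but it is set by Cavin1 and Cav2 alone and rests on the 28 and 19 reads of Cav2. Cav2 and Cavin3 were higher and Cavin1, Cavin2 and Ehd2 lower in NeuroD1 than in GFP. Of these genes only Cavin2 had a counting interval that excluded 1.

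The balance between members does not depend on how the libraries were scaled. Of the 28 ratios between 2 members, 25 had an exact interval for their change between the libraries that held 1. The 3 others all had Cav2 on top. Cav2 over Cavin2 was 0.427 in NeuroD1 and 0.171 in GFP, a 2.51-fold change of the ratio (interval of the conditional odds ratio 1.23 to 5.17). Cav2 over Ehd2 was 0.573 in NeuroD1 and 0.260 in GFP (interval 1.09 to 4.48), and Cav2 over Cavin1 was 0.342 in NeuroD1 and 0.169 in GFP (interval 1.02 to 4.09). These intervals were not adjusted for the 28 ratios or for the variance between the libraries, and rest on the 28 and 19 reads of Cav2.

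Summed by family, the caveolins held 71 reads in NeuroD1 and 72 reads in GFP, a scaled ratio of 1.12 (interval 0.793 to 1.57). The EHD genes held 114 reads in NeuroD1 and 155 reads in GFP, a ratio of 0.833 (interval 0.648 to 1.07). The cavins held 169 reads in NeuroD1 and 242 reads in GFP, a ratio of 0.791 (interval 0.646 to 0.967). Without Cavin2, the member with the lowest ratio, the ratio of the cavins was 0.882 (interval 0.680 to 1.14). No other member was left out of these sums, and Cavin1 also held fewer reads, 88 in NeuroD1 and 121 in GFP. All 8 genes together had a ratio of 0.870 (interval 0.760 to 0.995), which was 0.921 (interval 0.794 to 1.07) without Cavin2. Widened to the spread between the libraries, the interval was 0.609 to 1.03 for the cavins and 0.730 to 1.04 for all 8 genes.

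On the scale of log2(FPKM + 1), the median difference of the 8 genes, NeuroD1 minus GFP, was -0.04, with 4 above 0 and 4 below. The median over 20697 protein-coding genes at 1 FPKM or more in one library or both was -0.02. The member differences lay between -0.54 for Cavin2 and 0.57 for Cav2, and none reached 1 in size, the 2-fold mark on this scale. Among 6408 protein-coding genes at 5 FPKM or more in one library or both, 3.25% were past that mark on the higher side and 3.31% on the lower side, and over all genes of the table at that level 12.9% and 15.6% were. Of the 8 genes, 6 reached 5 FPKM; Cav2 and Ehd4 did not, and the 6 had a median difference of -0.18. Protein-coding genes between 10 and 20 FPKM, the range of Cavin1 and Cavin2, had a median difference of 0.12, and 65.2% of them were above 0. Those from 5 to 10 FPKM, the range of Plvap, Cav1, Cavin3 and Ehd2, had a median of 0.03. Cavin1 and Cavin2, with differences of -0.26 and -0.54, were thus below the median of genes of their level, and Cavin2 lay under the 10th percentile of -0.38 for that range.

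**Figure D3:**
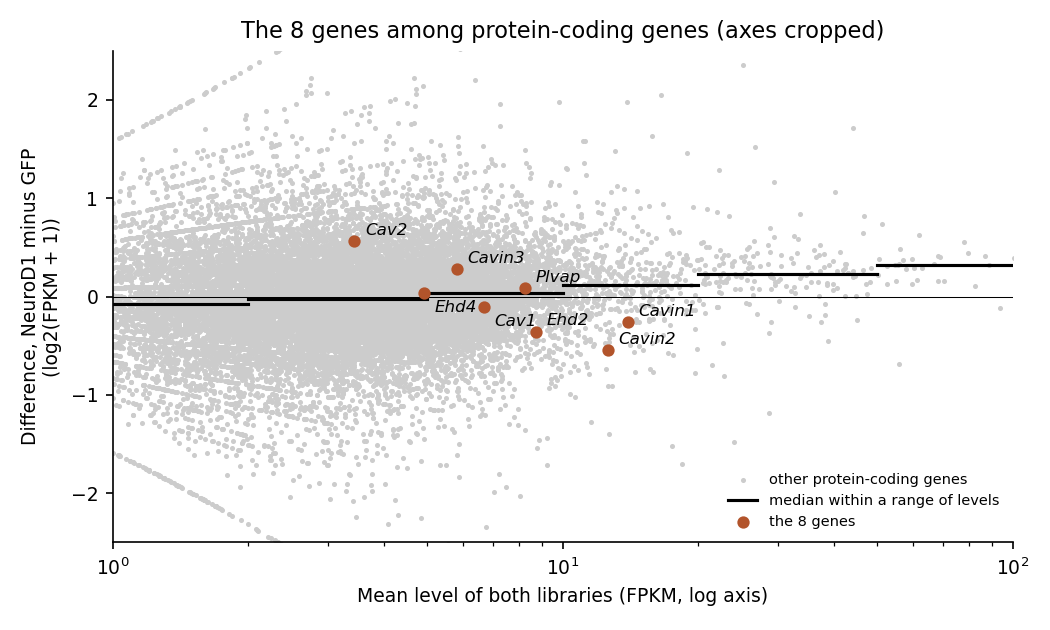
Difference between NeuroD1 and GFP in log2(FPKM + 1) (vertical axis) against the mean FPKM of both libraries (horizontal log axis) for protein-coding genes (grey) and the 8 genes (coloured); black bars are medians within ranges of level. The 8 genes lie between -0.54 and 0.57, inside the grey cloud.

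Set against the summed FPKM of endothelial markers in each library, 6 of the 8 genes were lower in NeuroD1 and Cav2 and Cavin3 were higher. Summed over 14 pan-endothelial markers, FPKM was 147 in NeuroD1 and 134 in GFP. As a percentage of that sum, Cavin2 was 6.87% in NeuroD1 and 11.3% in GFP, Cavin1 8.58% and 11.4%, and Ehd2 5.13% and 7.40%. Plvap was 5.81% in NeuroD1 and 5.95% in GFP, Cav1 was 4.37% and 5.20%, and Ehd4 was 3.41% and 3.63%. Cav2 was 2.94% in NeuroD1 and 1.93% in GFP, and Cavin3 was 4.42% and 3.86%. The sum over 10 brain endothelial markers was 280.0 FPKM in NeuroD1 and 238 FPKM in GFP, and relative to it the ratios of NeuroD1 over GFP were 0.566 for Cavin2, 0.645 for Ehd2, 0.700 for Cavin1, 0.781 for Cav1, 0.873 for Ehd4, 0.908 for Plvap, 1.06 for Cavin3 and 1.42 for Cav2. No interval was computed for these ratios. The brain marker sum was 1.18 times as high in NeuroD1 as in GFP, and so was the sum of FPKM over the whole table. A marker sum is therefore no measure of endothelial content alone. In a bulk isolate, fewer cells of a type and less RNA per cell cannot be told apart.

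Mural cells and fibroblasts of the vessel wall also make caveolae. Of 12 mural markers, 8 were lower and 3 higher in NeuroD1 among the 11 measured at 1 FPKM or more, and their summed FPKM was 35.2 in NeuroD1 and 40.3 in GFP. The pericyte channel gene Kcnj8 held 3 reads in NeuroD1 and 19 reads in GFP (ratio 0.179, interval 0.0339 to 0.608), and the intermediate filament gene Des held 12 reads in NeuroD1 and 28 reads in GFP (ratio 0.485, interval 0.225 to 0.986). These were 2 of the 8 mural markers with 20 reads or more, against the background of 6.22%, and no interval lay above 1. The widened interval was 0.0355 to 0.900 for Kcnj8 and 0.198 to 1.19, which holds 1, for Des. The smooth muscle actin gene Acta2 stood at 10.9 FPKM in NeuroD1 and 7.63 FPKM in GFP. Of 6 fibroblast markers all 6 were lower in NeuroD1, with a summed FPKM of 16.3 in NeuroD1 and 19.0 in GFP, and the interval held 1 for each of the 5 with 20 reads or more. The median level of mural markers was 2.08 FPKM in NeuroD1 and 3.38 FPKM in GFP, against 10.2 and 8.69 FPKM for pan-endothelial markers. Most markers of blood cells and microglia were also lower. Of 8 erythroid and platelet markers, 7 were lower in NeuroD1, 2 of them past 1 on the log2(FPKM + 1) scale, with a median difference of -0.58 and a summed FPKM of 32.9 in NeuroD1 and 51.9 in GFP. Of 9 microglia markers, 8 were lower in NeuroD1, with a median difference of -0.28 and a summed FPKM of 22.1 in NeuroD1 and 29.9 in GFP. No marker of these 4 cell groups was at 0, but most were within the range of chemoreceptor genes. Above the 95th percentile of those genes in NeuroD1 were 2 of 12 mural, 1 of 6 fibroblast, 3 of 8 erythroid and platelet and 1 of 9 microglia markers. In GFP these counts were 2, 1, 5 and 3. Kcnj8, at 0.604 FPKM in NeuroD1, was under the chemoreceptor median there. The part of these cell groups in the lower levels of Cavin1, Cavin2 and Ehd2 was not tested. The genes Kcnj8, Des and Acta2 were named after their values were seen. The lists of other brain cells were not lower. Neuron markers had a median difference of 0.26, with 6 higher and 4 lower, and a summed FPKM of 61.3 in NeuroD1 and 51.8 in GFP. At 1 FPKM or more, astrocyte markers had a median of 0.06 and oligodendrocyte lineage markers of 0.04, each with 4 higher and 3 lower.

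The paralogs of the members were within the range of chemoreceptor genes. Cav3, the muscle caveolin, held 2 reads in NeuroD1 and 4 reads in GFP, at 0.886 and 1.57 FPKM. Cavin4, the muscle cavin, stood at 1.498 FPKM in NeuroD1 (6 reads) and 2.87 FPKM in GFP (13 reads), with a ratio of 0.523 (interval 0.163 to 1.47). The recycling ATPase genes Ehd1, at 2.77 FPKM in NeuroD1 and 2.32 FPKM in GFP, and Ehd3, at 2.38 and 1.73 FPKM, were under the levels of Ehd2 and Ehd4 in both libraries. All 4 were below the 95th percentile of chemoreceptor genes in both libraries, as was the member Cav2. In GFP, Cav2 at 2.58 FPKM was under Cavin4.

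Mfsd2a, the transporter that keeps caveolar transport low, stood at 12.3 FPKM in NeuroD1 (54 reads) and 10.3 FPKM in GFP (51 reads). Its ratio of 1.20 had an interval of 0.803 to 1.79. Its FPKM was above that of Cav1, Cav2 and Plvap in both libraries, but its interval overlapped that of Plvap in both. In GFP it held fewer reads than Cav1, 51 against 53. Of 10 genes whose proteins work with caveolae or in their membrane domains, 8 were lower and 2 higher in NeuroD1, with a median difference of -0.08. The most abundant were Nostrin, which encodes a partner of endothelial nitric oxide synthase, at 7.88 FPKM in NeuroD1 and 9.11 FPKM in GFP (ratio 0.864, interval 0.514 to 1.44), and Dnm2, the gene of the dynamin that cuts vesicles from the membrane, at 7.02 and 7.13 FPKM. Flot2, which encodes a flotillin of membrane microdomains, stood at 5.80 FPKM in NeuroD1 and 5.45 FPKM in GFP. The interval held 1 for each of the 8 of these genes with 20 or more recovered reads.

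Clathrin-mediated endocytosis is the other main uptake route of brain endothelial cells. Of its 18 listed genes 9 were higher and 9 lower in NeuroD1, with a median difference of 0.03, and none was past 1 in size on the log2(FPKM + 1) scale. The clathrin heavy chain gene Cltc stood at 9.35 FPKM in NeuroD1 and 11.1 FPKM in GFP (ratio 0.844, interval 0.681 to 1.04), and the adaptor subunit gene Ap2s1 at 9.41 and 9.84 FPKM. The adaptor gene Epn1 was the only one, of 16 with 20 reads or more, with an interval that did not hold 1, at 3.10 FPKM in NeuroD1 and 6.28 FPKM in GFP (ratio 0.494, interval 0.262 to 0.893). Its relative Epn2 stood at 5.002 FPKM in NeuroD1 and 7.10 FPKM in GFP (interval 0.487 to 1.01). That count of 1 in 16 is near the background of 6.22%, and the widened interval of Epn1, 0.232 to 1.05, held 1.

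Wnt signalling holds Plvap low in brain endothelium and keeps the barrier. Of 16 genes of that pathway, 8 were higher and 8 lower in NeuroD1, with a median difference of -0.02. The co-receptor gene Adgra2 stood at 15.6 FPKM in NeuroD1 and 15.5 FPKM in GFP, a ratio of 1.01 (interval 0.817 to 1.24), and Lrp5 at 7.95 and 7.07 FPKM. The transcription factor gene Tcf7 stood at 4.49 FPKM in NeuroD1 and 6.04 FPKM in GFP, and Foxf2 at 6.29 and 4.79 FPKM, and both intervals held 1. For all 15 genes of the pathway with 20 reads or more the interval held 1.

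Of 8 genes listed as peripheral capillary markers, 5 were lower and 3 higher in NeuroD1, with a median difference of -0.20. Whether these genes, Car4 among them, are restricted to vessels outside the brain was not tested. Car4, a carbonic anhydrase gene, stood at 9.13 FPKM in NeuroD1 and 10.8 FPKM in GFP (ratio 0.843, interval 0.529 to 1.34). Esm1, a gene of angiogenic tip cells, stood at 5.87 FPKM in NeuroD1 and 3.89 FPKM in GFP (ratio 1.51, interval 0.786 to 2.95). These were the only list members at 5 FPKM or more, and the interval held 1 for all 7 with 20 reads or more. The remaining marker, Gpihbp1, held 0 reads in NeuroD1 and 7 reads in GFP, with an interval below 1 (0 to 0.786). Its level in GFP, 1.24 FPKM, was under the chemoreceptor median of that library, and no widened interval was computed for it. Gpihbp1 was named after its values were seen. By comparison the 10 brain endothelial markers had a median difference of 0.24, with 8 higher in NeuroD1, at levels between 5.85 and 60.8 FPKM in NeuroD1 and between 6.27 and 48.6 FPKM in GFP. Of the 9 with 20 reads or more, 5 had an interval above 1, against the background of 5.93%, and none had one below. The widened interval held 1 for Abcb1a (0.948 to 1.58) and Ly6c1 (0.958 to 1.64). It stayed above 1 for Slco1a4, Slc19a3 and Cldn12. Among protein-coding genes, the share above 0 was 53.9% from 5 to 10 FPKM, 65.2% from 10 to 20 FPKM and 85.2% from 20 to 50 FPKM.

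**Figure D4:**
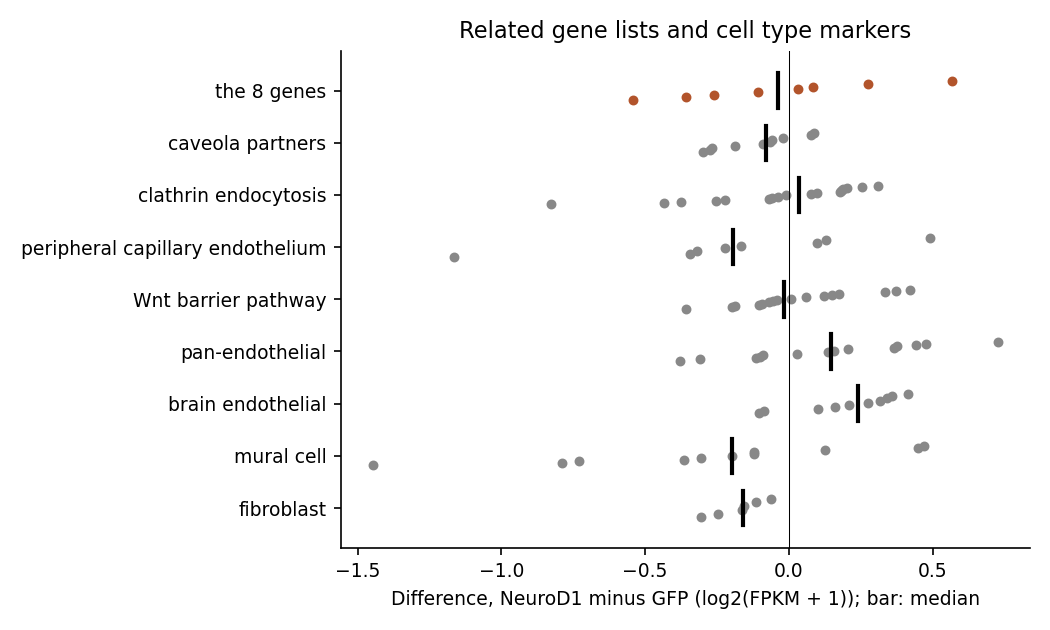
Difference between NeuroD1 and GFP in log2(FPKM + 1) (horizontal axis) for each gene of the related lists at 1 FPKM or more in one library or both (points), with the median of each list (black bar). The 8 genes spread about evenly around 0, with 4 on each side.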

How the data were processed

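RNA of isolated endothelial cells was profiled in 1 library per treatment. The authors deposited FPKM values in 1 table with a column for each library. Per the submitters' processing notes, the tools were featureCounts 1.6.3, Bowtie2 2.3.5.1 and DESeq (version not named), and the build was GRCm38. How strand, multiple mapping and molecular identifiers were handled is not stated there. FPKM times merged exon length in GENCODE M21 gave whole reads within 0.02 reads in both libraries for 51161 of 53465 genes. The value of 1 read differed by 1.13 between the libraries, as did median-of-ratios size factors. Total recovered reads, 2001425 in NeuroD1 and 2011126 in GFP, were nearly equal. The FPKM were thus taken as scaled by such factors and not by total reads. The alternative with size factors therefore nearly repeats the main setting.

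Ratios have exact Clopper-Pearson and levels exact Poisson 95% intervals. A difference is log2(FPKM + 1), NeuroD1 minus GFP; this scale makes changes of low genes look smaller. The widened interval multiplies the variance of the log ratio by 1.76 and was added after seeing the data.

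The members and lists were chosen with earlier results of these data known. Named were the members, their paralogs, Mfsd2a, Pecam1, Cldn5, Neurod1 and, of each list, the 2 most abundant genes and the 2 largest differences at 5 FPKM or more. With 1 library per treatment no likeness of pattern between genes was computed. On simulated data of 51161 genes for NeuroD1 against GFP, reads returned exactly for 100% of genes and intervals held the true ratio for 96.3% of unchanged genes, under counting error only. The simulated FPKM were built from the same exon lengths and values of 1 read. This checks the calculation and cannot show that the recovered reads are the true counts. Alternatives were other pseudocounts, minimums and scalings and members left out. Tools were Python 3.11.15, pandas 2.3.3, numpy 2.4.6, matplotlib 3.10.9 and scipy 1.17.1.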

Additional observations from a re-analysis of the deposited data

How the results depend on the processing

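No paired analysis was possible because each treatment has 1 library, and for the same reason no replicate could be left out. None of the 8 member differences reached 1 in size on the log2 scale with the pseudocount added, under the 6 alternatives run for each. All stayed within their counting intervals. The difference of Cav2, 0.57, was 0.94 with the chemoreceptor median subtracted and 0.30 with a pseudocount of 5. The 0.94 is held down by the added 1, without which the subtracted Cav2 values would differ by more than 2-fold. When the libraries were scaled to equal total FPKM, which shifts all protein-coding genes to a median of -0.19, Plvap (-0.12) and Ehd4 (-0.16) turned to lower, leaving Cav2 and Cavin3 higher. The member median was then -0.23, the ratio over all 8 genes 0.738, that of the cavins 0.672 (interval 0.548 to 0.821) and that of the EHD genes 0.707 (interval 0.550 to 0.907). The list medians were then -0.27 for paralogs, -0.26 for caveola partners, -0.15 for clathrin endocytosis, -0.39 for peripheral capillary markers and -0.23 for the Wnt pathway, by construction of that scaling. The member median was -0.18 for the 6 genes at 5 FPKM in one library or in both, and between -0.11 and 0.03 with 1 member left out, so its sign depended on single members. The paralog median, -0.13, was -0.26 with a pseudocount of 0.1, -0.44 with size factors, which drops Ehd3, and 0.19 with the chemoreceptor median subtracted, where the peripheral median was -0.091. Counts of genes at 1 or more in size on that scale were 1887 on the higher and 2295 on the lower side. They became 1061 and 1387 with a pseudocount of 5, 4343 and 6195 without a minimum, and 237 and 164 at 5 FPKM in both libraries. They were 214 and 211 at 20 FPKM and 208 and 212 among protein-coding genes. Fewer or more genes were counted under the other minimums and among protein-coding genes. Beyond that, the cause was not tested. The depth of 19 to 121 reads per member and library limits what could be seen.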
